A study of Rattus norvegicus with 8 samples.

Results

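The interferon-inducible GTPases studied here are the guanylate-binding proteins (Gbp) and the immunity-related GTPases (Irg) of the rat. Members were the probe sets whose platform annotation gives a single gene symbol among 8 names: Gbp1, Gbp2, Gbp4, Gbp5, Igtp, Irgm, Ifi47 and Iigp1. The rule found 4 of these genes, Gbp2, Gbp4, Igtp and Irgm, on 5 probe sets, out of 20826 probe sets with a single symbol. The names Gbp1, Gbp5, Ifi47 and Iigp1 are not given alone to any probe set in the annotation used here, and these genes were not analysed here. The rule uses names only, not measured values, but the names themselves were chosen with earlier results of these data known.

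Both families are cytosolic GTP-binding proteins that interferons switch on. Interferon gamma acts on a DNA element called GAS, and type I interferons act mainly on the interferon-stimulated response element. Guanylate-binding proteins assemble on pathogens and on the vacuoles that hold them, and they promote inflammasome activation. Irg proteins attack the membranes of such vacuoles, and Irgm and Igtp belong to the subgroup that sits on the cell's own membranes and keeps the other Irg proteins in check. In brain, microglia, astrocytes and endothelial cells can all make them after interferon exposure.

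Brain tissue came from adult male rats of the Wistar strain whose striatum had been injected stereotaxically, and its RNA was measured on 8 Affymetrix Rat Genome 230 2.0 arrays. In 1 group (4 arrays) the striatum had been given 5 µl with 50000000 particles of baculovirus, an insect virus used as a gene transfer vector, after 1 hour of ultraviolet light at 254 nm. In the other group (4 arrays) it had been given phosphate-buffered saline (PBS) at the same volume, and tissue of both groups was collected 48 hours later. The labels name no genetic change and give no age, 1 PBS array carries no strain entry, and the design text places PBS in the contralateral striatum and speaks of 7 rats. Which rat an array came from is not given, so arrays may share animals, and p-values measure only the spread between these samples. PBS replicate 4 stood apart in its choroid plexus markers, whose summed intensity was 166 there and 1772 to 2250 on the other arrays, and the members' values are also given without it.

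The sequence just before each gene's start is shown first, because the family is known for interferon response elements there. Any link between these elements and the members' values on the arrays was not tested. The 250 bases before the annotated start were taken from RefSeq (rat build GRCr8), which held 7 of the 8 names. Capitals mark the core of the interferon-stimulated response element, searched as GAAANNGAAA on both strands. Each of the 4 measured genes held this core at 1 place.

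Gbp2, chr2:234005477-234005726, plus strand: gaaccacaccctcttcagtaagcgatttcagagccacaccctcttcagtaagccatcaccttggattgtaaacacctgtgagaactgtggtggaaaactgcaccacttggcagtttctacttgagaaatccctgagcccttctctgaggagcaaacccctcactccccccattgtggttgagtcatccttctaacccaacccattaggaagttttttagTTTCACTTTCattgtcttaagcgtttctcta
Gbp4, chr2:233978236-233978485, plus strand: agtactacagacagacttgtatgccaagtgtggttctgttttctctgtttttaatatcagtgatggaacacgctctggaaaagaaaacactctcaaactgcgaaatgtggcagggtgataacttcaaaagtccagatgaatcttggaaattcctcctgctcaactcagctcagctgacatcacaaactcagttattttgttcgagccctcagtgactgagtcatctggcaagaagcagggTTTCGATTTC
Igtp, chr10:42874797-42875046, plus strand: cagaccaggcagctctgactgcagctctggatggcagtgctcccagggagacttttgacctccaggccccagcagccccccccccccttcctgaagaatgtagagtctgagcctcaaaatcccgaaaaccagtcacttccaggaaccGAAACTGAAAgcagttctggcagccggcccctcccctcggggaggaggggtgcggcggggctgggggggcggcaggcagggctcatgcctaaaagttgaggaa
Irgm, chr10:33742579-33742828, minus strand: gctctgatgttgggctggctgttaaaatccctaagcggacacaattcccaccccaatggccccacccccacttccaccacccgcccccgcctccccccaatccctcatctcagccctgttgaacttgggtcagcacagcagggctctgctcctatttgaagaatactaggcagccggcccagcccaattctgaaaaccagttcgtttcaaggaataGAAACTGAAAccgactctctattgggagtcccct

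The core began 31 bases before the start of Gbp2, 10 bases before that of Gbp4, 103 bases before that of Igtp and 34 bases before that of Irgm. It read as GAAACTGAAA in both Igtp and Irgm, and as TTTCACTTTC in Gbp2 and TTTCGATTTC in Gbp4 on the strand shown. The core was held before at least 1 start by 6 of the 7 names with a sequence, among them Gbp5 and 1 of the 2 annotated starts of Gbp1. Of all 33469 promoters, counted by annotated start and not by gene, 3.41% held it. The core of GAS, searched as TTCNNNGAA, which is its own reverse complement, was held by Igtp, Irgm and Ifi47 and by 7.67% of all promoters. A match describes letters only, and the absence of one says only that these letters are not in this window.

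In Igtp and Irgm the GAS core lay directly before the interferon response core, with 2 bases between them, and the cores did not overlap. The same arrangement stood before Irgm2, another Irg gene, which is no member. These stretches of 21 bases are shown with both cores in capitals, and the arrangement was chosen after the sequences had been seen.

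Igtp: TTCCAGGAAccGAAACTGAAA
Irgm: TTCAAGGAAtaGAAACTGAAA
Irgm2: TTCTAGGAAccGAAACTGAAA

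Searched as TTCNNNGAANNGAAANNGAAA on both strands, this arrangement was held by 7 of the 33469 promoters, or 0.0209%. Besides Igtp, Irgm and Irgm2 these were Ifgga2l2, which belongs to the Irg family by its name, Parp14, Stra8 and a gene without a name. The arrangement was found in no Gbp window. The map of motif positions shows both cores by their distance from the start.

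**Figure D1:**
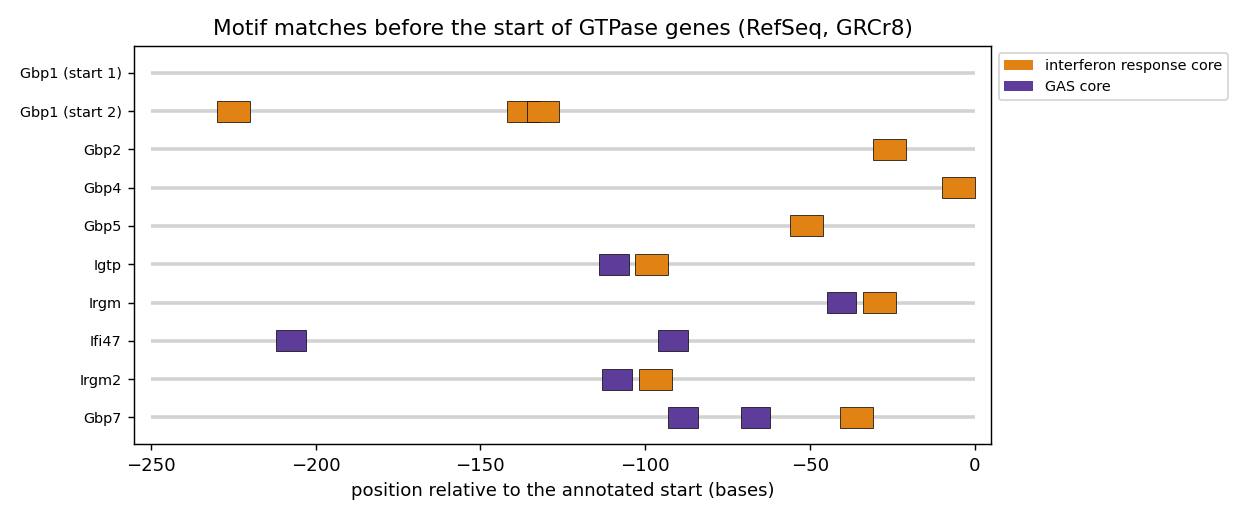
Positions of the interferon response core (orange) and the GAS core (purple) in the 250 bases before each annotated start, given in bases from the start on the horizontal axis, with 1 row for each start of 7 named genes and of Irgm2 and Gbp7. The pair of cores lies side by side in Igtp, Irgm and Irgm2, and Gbp2 and Gbp4 show the interferon response core without a GAS core.

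Across the arrays, no interferon-inducible GTPase passed the test between inactivated baculovirus and PBS, and every measured one had a higher mean after baculovirus. The mean of Gbp2 was 1.42-fold higher, that of Igtp 1.42-fold, that of Irgm 1.22-fold and that of Gbp4 1.23-fold, on the scale of log2(intensity + 16), on which the change of a dim probe set comes out smaller. The 5 probe sets followed nearly the same order of arrays, and that order cut across the groups. Baculovirus replicate 1 was the highest array and replicate 3 the next for each of the 5 probe sets, while baculovirus replicate 4 was the lowest or next to lowest for each. Intensities are in arbitrary units, with each array scaled to a common trimmed mean, and are not compared between probe sets. In such tissue samples fewer cells of a type and less RNA per cell cannot be told apart.

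Gbp2, a guanylate-binding protein that carries a lipid anchor, was read by probe set 1368332_at. After inactivated baculovirus its intensities were 178, 85.8, 129 and 31.3 in replicates 1 to 4, and after PBS they were 56.8, 40.1, 51.8 and 104. Baculovirus replicates 1 and 3 lay above every PBS array, replicate 2 lay below PBS replicate 4, and replicate 4 lay below every PBS array, so the groups overlapped. The means were 106 ± 62.5 after baculovirus and 63.2 ± 28.2 after PBS (SD, n = 4 each). The log2 fold change was 0.51 ± 0.35 (SE), with a 95% interval of -0.24 to 1.25 and a limma adjusted p of 0.787.

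Igtp, a regulatory Irg protein of the endoplasmic reticulum, was read by a pair of probe sets. On 1397304_at the intensities were 156, 98.1, 135 and 45.8 after baculovirus and 60.5, 54.4, 62.7 and 91.7 after PBS in replicates 1 to 4. Here 3 baculovirus arrays lay above every PBS array and replicate 4 lay below every PBS array. The means were 109 ± 48.2 and 67.3 ± 16.6 (SD, n = 4 each), and the log2 fold change was 0.50 ± 0.25 (SE; 95% interval -0.04 to 1.05, limma adjusted p = 0.742). This was the smallest adjusted p among the members.

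The other Igtp probe set, 1396163_at, measured 49.2, 22.6, 35.8 and 16.7 after baculovirus and 21.2, 15.1, 22.7 and 29.8 after PBS. The order was much the same, with baculovirus replicates 1 and 3 above every PBS array and PBS replicate 2 lowest. Its mean log2(intensity + 16) of 5.37 lay just under the level filter of 5.39 on that scale, so it was outside the whole-table fit. The difference in mean log2 level was 0.26 (exact two-sided permutation p = 0.371, where 4 against 4 arrays allow no p under 0.0286). Both Igtp probe sets therefore had the same direction. A further probe set that the annotation gives to 3 genes, Igtp with its copy Igtpl1 and Irgm2, is no member and measured between 1.23 and 13.2 on the 8 arrays. Igtp, Igtpl1 and Irgm2 neighbour each other in the RefSeq annotation, and how far their probe sets read each other's RNA is not known here.

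Irgm, a regulatory Irg protein of the Golgi apparatus and other inner membranes, was read by 1391489_at. Its intensities were 127, 70.2, 91.6 and 32.5 after baculovirus and 68.3, 43.0, 46.9 and 76.6 after PBS. Baculovirus replicates 1 and 3 lay above every PBS array, replicate 2 between PBS replicates 1 and 4, and replicate 4 below every PBS array. The means were 80.2 ± 39.4 and 58.7 ± 16.3 (SD, n = 4 each), and the log2 fold change was 0.29 ± 0.26 (SE; 95% interval -0.28 to 0.85, limma adjusted p = 0.841).

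Gbp4, a guanylate-binding protein, was read by 1385051_at. It measured 37.2, 17.8, 29.0 and 12.01 after baculovirus and 17.2, 10.6, 17.0 and 17.5 after PBS. Baculovirus replicates 1, 2 and 3 were above every PBS array, replicate 2 by a margin of less than 1 unit, and replicate 4 was below all PBS arrays except replicate 2. The means were 24.0 ± 11.3 and 15.6 ± 3.33 (SD, n = 4 each). The gene lay below the level filter, and the difference in mean log2 level was 0.30 (exact two-sided permutation p = 0.200).

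**Figure D2:**
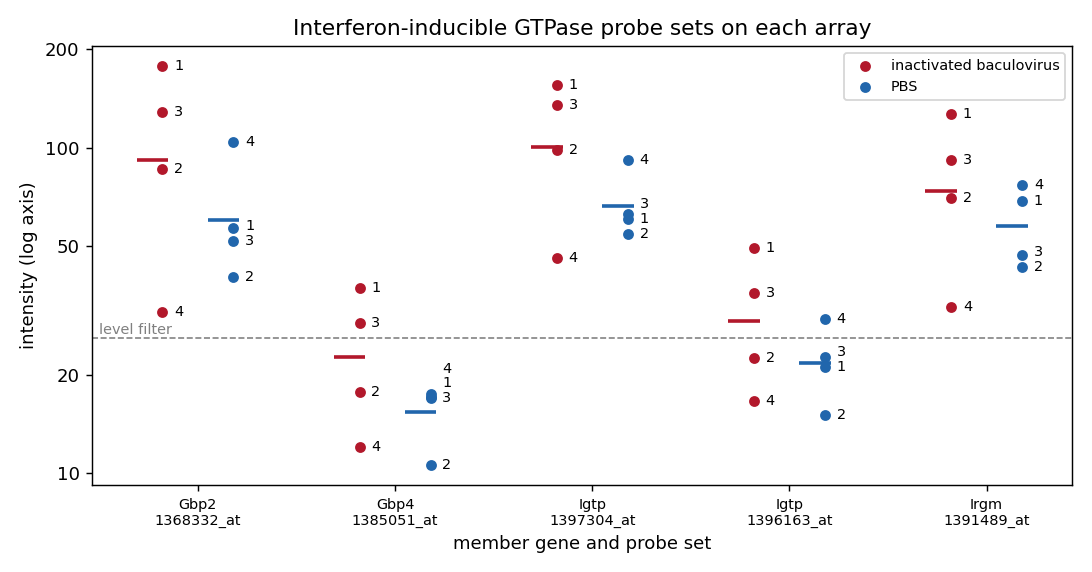
Intensity (log axis) of the 5 member probe sets on each array, with red points for inactivated baculovirus, blue points for PBS, the replicate number beside each point and a bar at the group mean of the log2 level. For each probe set baculovirus replicates 1 and 3 are the highest arrays, and baculovirus replicate 4 lies at or near the bottom, so the groups overlap.

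Of the 5 member probe sets 3 passed the level filter, 1 each of Gbp2, Igtp and Irgm. Of these 3, 0 passed a limma adjusted p of 0.05, where 0% of the 18625 probe sets tested passed, and the methods' t-test with Benjamini-Hochberg adjustment also passed 0 of them. None of the 3 was under an unadjusted p of 0.05, where 2.51% of the probe sets tested were so and higher after baculovirus and 4.22% were so and lower. The groups overlapped for each of the 3, and 1.55% of the probe sets tested lay higher after baculovirus without overlap. All 3 had a higher mean after baculovirus, as did 53.7% of the probe sets tested. The median log2 fold change over the 3 genes was 0.50, against 0.01 over all probe sets tested.

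The spread within a group was large for Gbp2, Igtp and Irgm. The residual SD of the log2 level was 0.70 for Gbp2, 0.50 for Igtp and 0.52 for Irgm, against a median of 0.15 over all probe sets tested. These values were at percentiles 99.8, 99.2 and 99.2 of that distribution. The highest baculovirus array was 5.69 times the lowest for Gbp2, 3.40 times for Igtp on 1397304_at, 3.90 times for Irgm and 3.09 times for Gbp4. Among PBS arrays these ratios were 2.60, 1.68, 1.78 and 1.65. The SD of the log2 level was larger after baculovirus than after PBS for each of the 4 genes, for example 0.88 against 0.47 for Gbp2, and this difference in spread was not tested.

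The level of the members on an array was taken as the mean of the log2 levels of Gbp2, Igtp and Irgm, each centred on its own mean over the 8 arrays. It was 0.91, 0.16, 0.57 and -0.78 in baculovirus replicates 1 to 4 and -0.20, -0.54, -0.37 and 0.25 in PBS replicates 1 to 4. Baculovirus replicate 1 and baculovirus replicate 4 were thus the extremes of all 8 arrays, and PBS replicate 4 lay above baculovirus replicate 2. Pairwise Pearson correlations between the 5 probe sets over the 8 arrays, which share RNA, labelling and scaling, lay between 0.912 and 0.983. They lay between 0.923 and 0.998 over the 4 baculovirus arrays and between 0.593 and 0.985 over the 4 PBS arrays.

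Of a pair of measures of RNA quality and labelling, that for beta-actin followed this level more closely than that for GAPDH in the order of the arrays. For beta-actin, the 3' probe set minus the 5' probe set on the log2 scale was 0.37, 0.51, 0.41 and 0.73 in baculovirus replicates 1 to 4 and 0.57, 0.63, 0.46 and 0.41 in PBS replicates 1 to 4. The arrays with the smallest difference, baculovirus replicates 1 and 3 and PBS replicate 4, were the 3 with the highest GTPase levels. The array with the largest difference, baculovirus replicate 4, had the lowest GTPase level. The same difference for GAPDH was -0.11, -0.04, -0.10 and -0.05 in baculovirus replicates 1 to 4 and -0.04, -0.05, -0.08 and -0.08 in PBS replicates 1 to 4. Its 3 lowest arrays were also baculovirus replicates 1 and 3 and PBS replicate 4, with PBS replicate 3 close behind (-0.0831 and -0.0823 in PBS replicates 4 and 3). Baculovirus replicate 4 was not its highest array, and baculovirus replicate 2 lay beside PBS replicates 1 and 2. Group means of the actin difference were 0.50 ± 0.16 after baculovirus and 0.52 ± 0.10 after PBS (SD, n = 4 each). With this difference as a covariate, a setting chosen after the data had been seen, the log2 fold change was 0.42 ± 0.14 (SE) for Gbp2, 0.44 ± 0.11 for Igtp and 0.23 ± 0.15 for Irgm. The limma adjusted p values were then 0.613, 0.602 and 0.756 (unadjusted 0.0096, 0.0016 and 0.15), and no member passed. The part of RNA quality in the spread of the members was not tested.

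**Figure D3:**
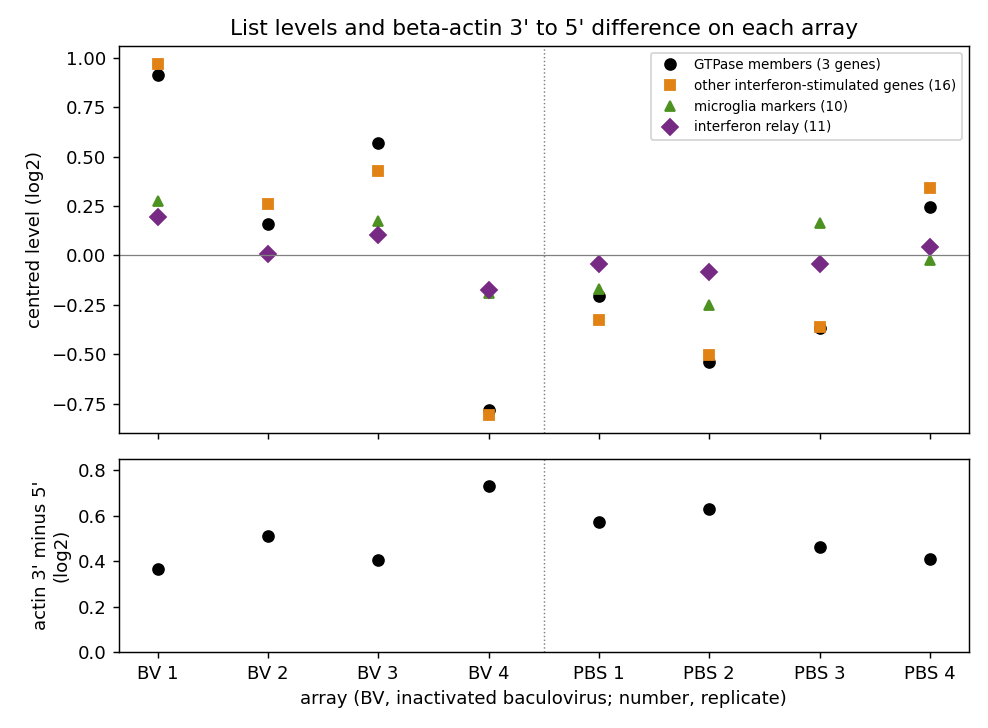
Upper panel, centred log2 level of the 3 GTPase genes tested, 16 other interferon-stimulated genes, 10 microglia markers and 11 genes of the interferon relay on each array, and lower panel, the log2 difference between 3' and 5' beta-actin probe sets. The GTPase level runs from -0.78 in baculovirus replicate 4, where the actin difference is 0.73, to 0.91 in baculovirus replicate 1, where it is 0.37.

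Leaving out an array changed the size of the differences and made no member pass. Without baculovirus replicate 1 the log2 fold change was 0.22 ± 0.32 (SE) for Gbp2, 0.31 ± 0.24 for Igtp and 0.06 ± 0.24 for Irgm. Without baculovirus replicate 4 it was 0.90 ± 0.24, 0.80 ± 0.16 and 0.58 ± 0.19, with limma adjusted p values of 0.742, 0.674 and 0.757. Irgm stood at 0.18 ± 0.29 without PBS replicate 2. Without PBS replicate 4 the values were 0.73 ± 0.35 for Gbp2, 0.63 ± 0.26 for Igtp and 0.40 ± 0.28 for Irgm (SE, limma adjusted p = 0.491, 0.447 and 0.633). The median over the 3 genes was 0.22 without baculovirus replicate 1 and 0.80 without baculovirus replicate 4.

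**Figure D4:**
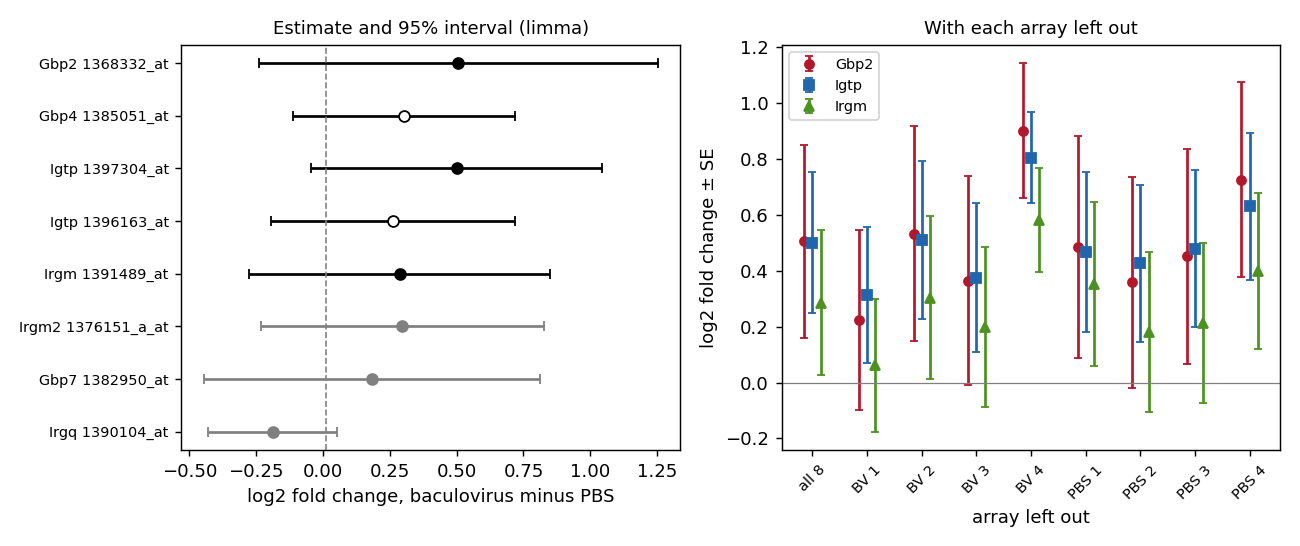
Left, log2 fold change with its 95% limma interval for the 5 member probe sets (black) and 3 related probe sets (grey), open symbols being below the level filter and fitted without it, with a dashed line at the median of all probe sets tested. Right, log2 fold change ± SE of Gbp2, Igtp and Irgm with all 8 arrays and with each array left out, lowest without baculovirus replicate 1 and highest without baculovirus replicate 4.

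Related genes that are no members were looked at after the members' values had been seen. Irgm2, a further regulatory Irg protein, had a mean of 87.6 ± 41.7 after baculovirus and 64.5 ± 17.2 after PBS (SD, n = 4 each), with a log2 fold change of 0.30 ± 0.25 (SE, limma adjusted p = 0.822). Gbp7 stood at 0.18 ± 0.29 (SE, limma adjusted p = 0.921), and its residual SD was at percentile 99.5 of all probe sets tested. Irgq, an Irg relative that interferon is not known to induce, stood at -0.19 ± 0.11 (SE, limma adjusted p = 0.772) and had a residual SD at percentile 72.4. Its intensities stayed within 1.66-fold over the 8 arrays. Other relatives with constitutive expression, the atlastins, which fuse membranes of the endoplasmic reticulum, and the dynamins, which pinch off vesicles, made a list with Irgq. Of 8 members on the array and tested 3 had a higher and 5 a lower mean, 0 passed, and the median log2 fold change was -0.08. By p they were led by Atl2 at -0.23 ± 0.11 and Dnm2 at 0.25 ± 0.12 (SE).

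The genes that relay interferon signals, from ligands and receptors to kinases and transcription factors, came next. Of 15 such genes on the array 11 passed the filter, with 7 higher and 4 lower means, 0 past the threshold and a median log2 fold change of 0.08. The ligands were dim: Ifng, which encodes interferon gamma, measured 9.84 ± 3.86 after baculovirus and 11.9 ± 5.95 after PBS, and Ifnb1, which encodes interferon beta, was between 0.895 and 5.21 on all arrays. The receptor subunit Ifnar1 stood at 0.19 ± 0.12 and the transcription factor Stat2 at 0.20 ± 0.14 (log2 fold change ± SE). The opposite direction was seen on 1 of 5 other Ifnar1 probe sets and on the other Stat2 probe set. The level of this list ran from -0.18 in baculovirus replicate 4 to 0.20 in baculovirus replicate 1, the arrays that were also lowest and highest for the GTPases.

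Of 20 other interferon-stimulated genes 18 were on the array and 16 tested, and 16 had a higher mean, with 0 past the threshold and a median log2 fold change of 0.42. Oasl, an antiviral protein related to oligoadenylate synthetases, stood at 0.53 ± 0.17 and Ifit3, which acts against viral RNA translation, at 0.92 ± 0.38 (SE, limma adjusted p = 0.686 and 0.717). The level of this list was 0.97, 0.26, 0.43 and -0.81 in baculovirus replicates 1 to 4 and -0.33, -0.50, -0.36 and 0.34 in PBS replicates 1 to 4. It was highest and lowest on the same arrays as the GTPases. Of its 12 genes with a RefSeq promoter 10 held the interferon response core and 2 the GAS core.

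Genes of processes that the GTPases take part in were a further pair of lists. The ATG8 conjugation machinery, which guides Irg and Gbp proteins to vacuoles, had 3 of 8 tested genes higher and 5 lower, 0 past the threshold and a median log2 fold change of -0.01. Atg12 stood at -0.15 ± 0.10 and Atg5 at -0.12 ± 0.08 (SE), and both other Atg5 probe sets and 1 of 2 other Atg12 probe sets had the opposite direction. Of 9 inflammasome genes 6 were on the array and 4 tested, all 4 with a higher mean, 0 past the threshold and a median of 0.08. The adaptor Pycard stood at 0.34 ± 0.19 and the protease Casp1 at 0.10 ± 0.17 (SE).

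The genes whose pattern over the 8 arrays was most like the members' level were found among 10536 other genes by Pearson correlation, as a description over arrays that share RNA, labelling and scaling. They were Psmb9, a subunit of the immunoproteasome, at 0.984, Oas1a, an oligoadenylate synthetase, at 0.984, Cybb, the phagocyte oxidase subunit, at 0.983, Usp18, which removes ISG15 from proteins, at 0.982, and RT1-Ba, an MHC class II chain, at 0.979. Parp12 followed at 0.975, Plac8 at 0.972 and Erap1, which trims peptides for MHC class I, at 0.972. Each of the 8 was highest in baculovirus replicate 1. Of these, 7 were lowest in baculovirus replicate 4, while Psmb9 was lowest in PBS replicate 2. The members' level has its extremes on baculovirus replicates 1 and 4, so picking genes by likeness to it largely sets this pattern. Usp18 measured 130 ± 80.6 after baculovirus and 69.6 ± 22.4 after PBS, and Cybb 72.2 ± 46.6 and 44.2 ± 20.5 (SD, n = 4 each). None of the 8 passed, with limma adjusted p values between 0.756 and 0.890.

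Markers of the cells that the tissue could hold were set beside the members. Of 10 microglia markers 9 had a higher and 1 a lower mean, 0 passed, and Olfml3 led by p at 0.28 ± 0.10 (SE). Without PBS replicate 4, 7 microglia markers were higher and 3 lower. Their summed intensity ran from 2011 to 2563 after baculovirus and from 1864 to 2534 after PBS. Microglia markers were also highest in baculovirus replicate 1, at a level of 0.28, but stood at 0.17 in PBS replicate 3, where the GTPase level was -0.37. Of 8 monocyte markers 4 were tested, all 4 with a higher mean and 0 past the threshold, led by Ly6c at 0.96 ± 0.47 (SE), and their sum ran from 848 to 1561 after baculovirus and from 730 to 1447 after PBS. The level of the 4 tested monocyte markers moved with that of the GTPases, at 0.65, 0.08, 0.36 and -0.41 in baculovirus replicates 1 to 4 and -0.23, -0.49, -0.20 and 0.24 in PBS replicates 1 to 4. Ly6c weighs most in this level, as its intensity spanned 12.95-fold over the 8 arrays. The span was 2.47-fold for Cd14, 2.01-fold for Lyz2 and 1.65-fold for Mrc1. The other genes of the list, Ccr2, S100a8, S100a9 and Cd163, were below the level filter, so the level rests on the 4 tested genes alone. How far these 4 read monocytes and no other cells was not tested. All 10 T and NK cell markers were below it as well, with sums of 142 to 180 after baculovirus and 96.4 to 154 after PBS. Each of them except Cd8b had a higher mean after baculovirus, and these differences were not tested. Cd3e, the first of the list, stood at 14.4 ± 4.10 after baculovirus against 10.7 ± 4.19 after PBS (SD, n = 4 each).

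Endothelial markers had 5 higher and 3 lower means, led by Tie1 at 0.28 ± 0.11 (SE), with sums of 1238 to 1252 after baculovirus and 1149 to 1334 after PBS. Astrocyte markers had 3 higher and 5 lower, led by Slc1a2 at 0.12 ± 0.08, with sums of 8583 to 9423 and 8458 to 9987. Markers of striatal neurons, which fit the labelled injection site and were all above the level filter where present, had 2 higher and 7 lower, led by Bcl11b at -0.39 ± 0.11, with sums of 4677 to 6307 and 4894 to 6553. Of 2 other Bcl11b probe sets 1 had the opposite direction. Choroid plexus markers had 4 of 4 tested genes higher, led by Folr1 at 0.45 ± 0.26, with sums of 1772 to 2250 after baculovirus and 166 to 2127 after PBS. The lowest sum was that of PBS replicate 4, the PBS array with the highest GTPase level, while the remaining PBS arrays lay between 2001 and 2127. Without PBS replicate 4, 3 of the 4 choroid plexus genes were higher and 1 lower, and their median log2 fold change of 0.37 became 0.16. Leaving out the same array, 5 astrocyte markers were higher and 3 lower, and 4 striatal neuron markers were higher and 5 lower. Endothelial markers stayed at 5 higher and 3 lower, and all 4 tested monocyte markers stayed higher. No marker in these lists passed. At an unadjusted limma p under 0.05 there were 2 of 16 other interferon-stimulated genes, 1 of 8 constitutive relatives and 2 of 10 microglia markers. There were also 1 of 8 endothelial and 1 of 9 striatal markers, and 0 genes in each of the other lists. Of all probe sets tested, 2.51% were under this p and higher after baculovirus, and 4.22% were under it and lower. No marker was listed at an intensity of 0, and the part of any cell type in the values of the GTPases was not tested.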

How the data were processed

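Brain RNA of 8 samples was measured on Affymetrix Rat Genome 230 2.0 arrays. The authors deposited linear intensities, acquired with GCOS per the labels' protocols. GC-RMA and GeneSpring are also named in the design text, and the algorithm behind the deposited values is not stated. With 2% trimmed at each end, each array's mean lay between 100.021 and 100.023. RNA was labelled with either of a pair of kits, and which array had which is not given.

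Intensities became log2(intensity + 16) without further normalization, since array medians lay between 5.74 and 5.85. Arrays correlated at 0.970 to 0.986. Of 31099 probe sets 57 are controls. The rest were tested where the mean passed the 40th percentile (18625 probe sets). Symbols came from the platform annotation, and 0 changed when checked by gene number. A gene was read by its brightest single-symbol probe set.

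The comparison used limma 3.58.1 in R 4.3.3 (variance trend, no block, two-sided). P-values were adjusted by Benjamini-Hochberg over the whole table at a threshold of 0.05. Precision is limited by the number of arrays. The script was tested on simulated data. Members below the filter had an exact permutation test.

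Named were each member on each array, the 2 genes of smallest p of each pathway list, the leading marker of each cell type with tested genes and the 8 genes most like the members' level. Members and lists were chosen with earlier results of these data known. Alternatives covered the pseudocount, normalization, filter, variance model, array weights, the methods' t-test, a replicate block, probe set choice and leaving out each array. The actin covariate was added after the data had been seen.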

Additional observations from a re-analysis of the deposited data

Results flagged for a closer look

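Gbp4 in PBS replicate 2 stood apart from its group. It measured 10.6, where the remaining PBS arrays lay from 17.0 to 17.5, and the gap made up 0.939 of the group's range on the log2 scale, above Dixon's 95% critical value for 4 samples. The probe set is below the level filter. It was the 1 such case among 10 groups of 4 arrays (5 probe sets in both groups), and chance gives about 1 in 20.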

How the results depend on the processing

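No member probe set passed under any alternative run, and Gbp2, Igtp and Irgm kept a higher mean after baculovirus in each. Correlations of deviations between arrays of the same number were -0.01, 0.02, 0.01 and -0.003. Over all pairs of a baculovirus and a PBS array they ran from -0.11 to 0.08. As no pair of arrays is known to share an animal, these values cannot show whether the replicate numbers pair the arrays. The replicate block left 0 of 3 probe sets past the threshold (lowest limma adjusted p = 0.805). With array weights the unadjusted limma p of Igtp was 0.045, and those of Gbp2 and Irgm were 0.131 and 0.219. The count was also 0 with the methods' t-test (0 after Benjamini-Hochberg adjustment), and 0 of 5 without a level filter. The median log2 fold change over the members tested, 0.50, was 0.57 with a pseudocount of 1, 0.36 with 64, 0.49 with quantile normalization, 0.47 with median centring, 0.40 over 4 genes without a filter and 0.38 with probe sets averaged within a gene. It ran from 0.22 to 0.80 with 1 array left out, and the lowest adjusted p from 0.447 to 0.997. Gbp4 and Igtp probe set 1396163_at lay below the level filter, and detection calls were not used here.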
